A study of Mus musculus with 8 samples.

Results

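Embryonic stem cells of the R1 mouse line (mESCs) that carried one of the *Eftud2* hairpins, shRNA1 or shRNA2, were set against each other. Of the 8 RNA-seq libraries of the series the comparison took 6, shRNA2 replicates 1 to 3 against shRNA1 replicates 1 to 3, and the non-targeting control (nt-shRNA, 2 libraries) entered no test. Of 55385 genes in the count table, 16614 passed the filter on low counts, and all of them were compared. Every group, nt-shRNA included, was wild type in genotype, grew without feeders in N2B27 medium with 2i and LIF on poly-L-ornithine and laminin, and went through 2 days of lentiviral infection and 3 days of puromycin selection. The labels call the replicates biological and do not say whether they were separate infections, so the p-values cover the spread between these libraries. As the study describes them, shRNA1 is aimed at the 3′ untranslated region of *Eftud2* and shRNA2 at its coding sequence. Each hairpin is a single sequence in a selected pool of infected cells, so its effect through *Eftud2* and any effect through other transcripts cannot be told apart. A positive log2 fold change below means a higher level with shRNA2 than with shRNA1.

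Eftud2 is a GTPase of the U5 small nuclear ribonucleoprotein (snRNP), where it sits beside the scaffold Prpf8 and the helicase Snrnp200 and takes part in the opening of the U4/U6 duplex that activates the spliceosome, and again in its disassembly. Mouse ES cells in 2i and LIF are held near the state of the naive epiblast: the inhibitors block FGF-ERK signalling and activate WNT signalling, and LIF acts through Stat3. A hairpin of this type is processed by Dicer and loaded into Argonaute, and a match of its seed to other transcripts can lower those as well, which is why a pair of hairpins is commonly used.

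In these counts the targeted gene itself was not told apart between the hairpins. By qPCR, a separate measure, the study reports a clear knockdown of *Eftud2* with each hairpin, stronger with shRNA2. On western blots it reports less of the protein with either hairpin. *Eftud2* (chromosome 11, 102838473 to 102880985, minus strand, GRCm38) was at 237, 234 and 229 counts per 1000000 (CPM) with shRNA1 and at 202, 205 and 238 CPM with shRNA2, beside 264 and 257 CPM with nt-shRNA. In shRNA2 replicates 1 and 2 it lay below every shRNA1 library, while replicate 3 lay above all of them. The log2 fold change was −0.12 (SE 0.064, adjusted p = 0.162, edgeR quasi-likelihood test with Benjamini-Hochberg adjustment). Without shRNA2 replicate 3 it was −0.20 and passed the threshold (adjusted p = 0.0189). The counts cover all exons of the gene without regard to strand.

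The 6 libraries held 19569525 to 27501491 counted read pairs, and the nt-shRNA libraries held 28548237 and 29871048. On the first principal component of the 500 most variable genes, which carried 78.3% of the variance, the shRNA1 libraries lay at −16.67 to −12.82 and the shRNA2 libraries at 7.77, 13.56 and 22.05, with shRNA2 replicate 3 nearest to shRNA1. The 8 ES cell markers summed to 6730 to 6990 CPM with shRNA1 and 6750 to 7070 CPM with shRNA2, with 5 of them higher and 1 lower. The lower one was the abundant *Dppa5a*, at 2106, 1852 and 1985 CPM against 1284, 1086 and 1463 CPM. Markers of other cell types were low. Of 7 primitive endoderm markers 5 were tested, 3 of them lower with shRNA2, and the sum was 43.5 to 49.8 CPM against 35.7 to 42.0 CPM. Of 6 trophoblast markers 3 were tested, 2 of them lower, with sums of 19.4 to 27.7 CPM against 6.89 to 9.49 CPM that were mostly *Krt7*, while the trophoblast gene *Tpbpa* had 0 counts in every library. Neural markers summed to 30.1 to 31.9 CPM with shRNA1 and 37.6 to 51.5 CPM with shRNA2, with 1 of the 4 tested higher and 1 lower. The higher one was *Tubb3*, at 353, 293 and 462 counts against 564, 885 and 553, and the lower one was *Map2*. Of 5 mesoderm markers 4 were tested and 1 was higher, with sums of 7.13 to 8.29 CPM against 8.84 to 10.5 CPM. Of 6 fibroblast markers 3 were tested and 0 called, with sums of 6.35 to 7.68 CPM over the 6 libraries.

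Between the hairpins 5881 genes differed, 35.4% of those tested. With shRNA2, 2697 genes were higher (16.2%) and 3184 were lower (19.2%). With gene-length offsets the balance was even, at 3020 higher and 2996 lower genes. A difference of over 2-fold was found for 266 higher genes (1.6%) and 366 lower genes (2.2%). The 3 libraries of each group did not overlap, in the called direction, for 2582 of the higher and 3063 of the lower genes. Over all 16614 genes tested the groups did not overlap for 8121, so absence of overlap was not limited to called genes. Most differences were smaller than 2-fold. The quartiles of all log2 fold changes were −0.24 and 0.195, the median was −0.006 and the median SE was 0.103. Among the genes past 2-fold, shRNA2 replicate 3 was the shRNA2 library nearest to shRNA1 for 198 of the 266 higher and 215 of the 366 lower genes. Without that library 394 genes were higher and 584 lower by over 2-fold.

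**Figure D1:**
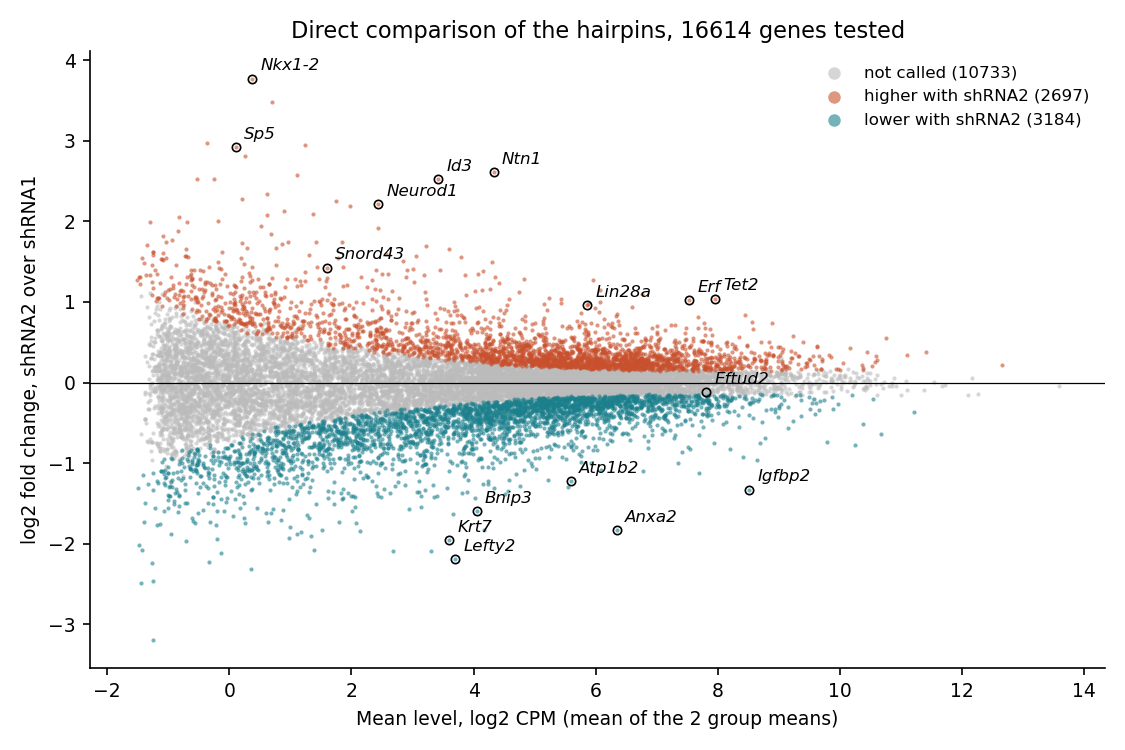
Log2 fold change of shRNA2 against shRNA1 (vertical axis) by mean level in log2 CPM (horizontal axis) for the 16614 genes tested, with called genes in colour and leading genes labelled. Called genes lie on both sides of 0, the 266 higher and 366 lower genes past 2-fold lie above 1 and below −1, and *Eftud2* lies among the genes not called.

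Among the genes past 2-fold without overlap, the smallest adjusted p-values on the higher side belonged to *Erf*, *Ntn1* and *Tet2*. Absence of overlap was part of the rule that chose the leading higher and lower genes, so it adds no support for them. *Erf* (chromosome 7, 25242561 to 25250761), an ETS-family repressor that ERK phosphorylation moves out of the nucleus, was at 113, 134 and 118 CPM with shRNA1, 242, 269 and 231 CPM with shRNA2 and 84.5 and 77.2 CPM with nt-shRNA. All 3 shRNA2 libraries stood above all shRNA1 libraries, a 2.03-fold difference (log2 1.02, SE 0.071, adjusted p = 1.61e-07). *Ntn1* (chromosome 11, 68209364 to 68400823), which encodes the secreted guidance cue netrin-1, was at 6.36, 6.15 and 4.64 CPM with shRNA1 and 30.6, 49 and 23.8 CPM with shRNA2. Its shRNA1 libraries were close to the 4.04 and 4.59 CPM of nt-shRNA, and the difference between hairpins was 6.08-fold (log2 2.61, SE 0.20, adjusted p = 5.97e-07). *Tet2* (chromosome 3, 133463679 to 133545139), an enzyme that oxidizes 5-methylcytosine in DNA, was at 164, 176 and 146 CPM with shRNA1, 352, 368 and 279.8 CPM with shRNA2 and 111 and 112 CPM with nt-shRNA. The groups did not overlap (log2 1.04, SE 0.087, adjusted p = 1.01e-06). The other leading higher genes were the collagen receptor *Ddr2* (log2 1.31), the small GTPase gene *Rnd1* (1.03), the homeobox gene *Tlx2* (1.92), the imprinted *Zdbf2* (1.28), the epiblast and neural crest factor *Foxd3* (1.14), the neurogenic factor *Neurod1* (2.21) and the secreted phospholipase gene *Pla2g1b* (1.33). *Zdbf2* showed the 3 groups apart, with 40.1, 39.5 and 29.9 CPM for shRNA1, 90.8, 106 and 67.2 CPM for shRNA2 and 14.1 and 15.7 CPM for nt-shRNA.

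Of the 5 largest fold changes upwards among protein-coding genes with a mean of at least 1 CPM in the higher group, 1 was that of *Ntn1* and the other 4 were of transcription factor genes with few reads under shRNA1. *Nkx1-2*, a homeobox gene of the posterior epiblast, had 5, 2 and 5 counts with shRNA1 and 53, 76 and 28 counts with shRNA2 (log2 3.77, SE 0.43). The WNT target *Sp5* had 4, 7 and 6 against 42, 65 and 16 counts (2.92, SE 0.47), and *Sp9*, of the same zinc finger family, had 4, 5 and 8 against 38, 38 and 17 counts (2.53, SE 0.38). *Myc*, which promotes growth and proliferation, had 12, 18 and 12 counts with shRNA1 and 64, 139 and 34 with shRNA2, equal to 0.553, 0.908 and 0.435 and 3.03, 6.37 and 1.58 CPM (2.57, SE 0.42). For these 4 genes the lowest shRNA2 library was replicate 3. *Nkx1-2*, *Sp5* and *Sp9* had fewer than 10 counts in every shRNA1 library, passed the filter through the shRNA2 libraries, and were not tested when 10 counts were required in every library. At these depths 3 counts are worth 0.109 to 0.153 CPM, so the size of these folds is less certain than that of *Ntn1*.

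On the lower side the leading genes were *Anxa2*, *Atp1b2* and *Krt7*. *Anxa2* (chromosome 9, 69453620 to 69491795), a calcium-dependent membrane-binding protein, was at 109, 119 and 154 CPM with shRNA1 and at 41.3, 28.5 and 37.7 CPM with shRNA2, beside 238 and 280.0 CPM with nt-shRNA. It was 3.55-fold lower with shRNA2 (log2 −1.83, SE 0.12, adjusted p = 1.29e-07), and no shRNA2 library came near any shRNA1 library. *Atp1b2* (chromosome 11, 69599736 to 69605942), a beta subunit of the sodium-potassium pump, was at 67.3, 63.3 and 72.7 CPM against 29.1, 24.8 and 33.1 CPM, with 132 and 135 CPM in nt-shRNA (log2 −1.23, SE 0.09, adjusted p = 2.5e-07). *Krt7* (chromosome 15, 101411043 to 101430313), a keratin of simple epithelia and trophoblast, was at 16.2, 18.5 and 22.9 CPM against 4.97, 3.8 and 6.1 CPM, with 27.7 and 31.2 CPM in nt-shRNA (log2 −1.96, SE 0.16, adjusted p = 6.22e-07). For each of the 3 genes the control libraries were the highest, shRNA1 came next and shRNA2 was the lowest. The remaining genes of this group were the matrix glycoprotein gene *Tinagl1* (log2 −1.26), the hypoxia- and clock-linked repressor *Bhlhe40* (−1.09), the insulin-like growth factor binding protein *Igfbp2* (−1.33), the aldolase *Aldoc* (−1.82), the pump regulator *Fxyd2* (−1.56), the RNA helicase *Mov10* (−1.1) and the fatty acid carrier *Fabp3* (−1.13). *Igfbp2* was the most abundant of them, at 488, 437 and 648 CPM with shRNA1, 213, 171 and 242 CPM with shRNA2 and 1016 and 1023 CPM with nt-shRNA.

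By fold change the lower side was led by the adhesion receptor *Adgrg5* (log2 −2.31), the NODAL antagonist *Lefty2* (−2.19), the chitinase *Chit1* (−2.12), the neuronal adaptor subunit *Ap3b2* (−2.09) and the hypoxia-induced mitochondrial gene *Ndufa4l2* (−2.09). *Adgrg5* had 6, 6 and 16 counts and *Chit1* 4, 8 and 10 counts with shRNA2, so their folds rest on few reads, and neither was tested when 10 counts were required in every library. *Ap3b2*, at 10.8, 10.6 and 9.76 CPM against 3.03, 1.24 and 3.03 CPM, and *Ndufa4l2*, at 13.8, 10.8 and 23.2 CPM against 3.83, 3.21 and 4.33 CPM, were better covered. In all 5 of these genes the shRNA2 libraries lay below the shRNA1 libraries without overlap.

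**Figure D2:**
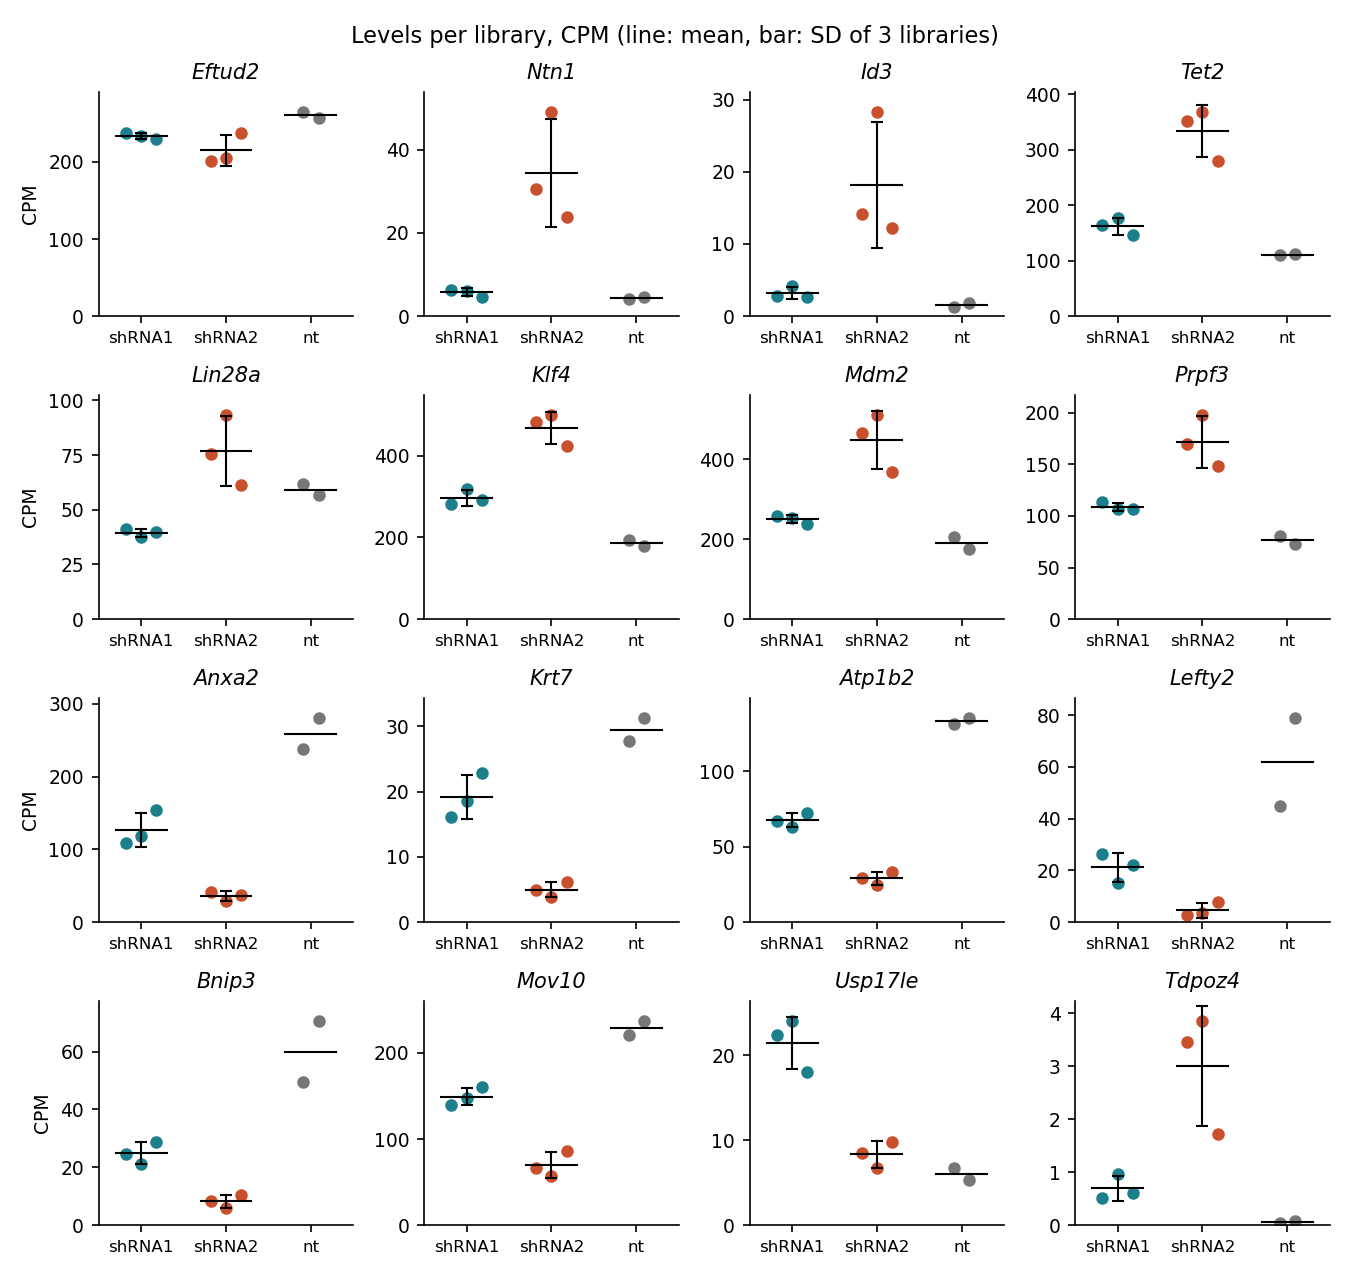
TMM-normalized level in CPM (vertical axis of each panel) of 16 genes in each of the 8 libraries, by group; each point is 1 library the line is the group mean and the bar the SD of 3 libraries. For *Ntn1* the shRNA2 libraries (23.8 to 49.0 CPM) stand above all others, for *Anxa2* they stand lowest (28.5 to 41.3 CPM), and for *Eftud2* the 2 hairpin groups overlap.

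The remaining results follow 42 lists of genes by function, each given as the number of genes higher and lower among those tested, and the median log2 fold change. The background for each is 16.2% higher, 19.2% lower and a median of −0.006 over all genes tested. Members are mentioned as higher or lower only where they passed the test, and a value in parentheses after a gene is its log2 fold change.

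Spliceosome genes that were called were higher with shRNA2. Of 25 proteins of the U5 snRNP and the U4/U6.U5 tri-snRNP, 15 were higher, 0 lower and 10 not called (median 0.21). *Prpf3*, a U4/U6 protein, was at 113, 107 and 106 CPM with shRNA1, 169, 197 and 148 CPM with shRNA2 and 80.3 and 72.8 CPM with nt-shRNA (log2 0.66, SE 0.08, adjusted p = 1.25e-05). Each shRNA2 library lay above each shRNA1 library for *Prpf3*, and likewise for *Prpf8*, the U5 scaffold, at 681, 668 and 667 CPM against 899.7, 1012 and 827 CPM (0.44), and for the tri-snRNP protein *Sart1* (0.41). *Snrnp200*, the other close partner of Eftud2 and named here after its values were seen, was at 457, 461 and 463 CPM against 578, 626 and 539 CPM (0.34, SE 0.061, adjusted p = 0.000439). Among the 9 U5 proteins 6 were higher, and *Eftud2* was the only one with a fold change below 0. In the other core spliceosome 25 of 47 genes were higher, 0 lower and 22 not called (median 0.17), with 11 of 17 for U2 and branch-site proteins, 10 of 20 for the Prp19 complex and the catalytic step, and 4 of 10 for U1 and Sm proteins. The helicases *Dhx16* (0.51) and *Ddx46* (0.42) and the SF3b subunit *Sf3b3* (0.4) led this list, and none of its members passed 2-fold.

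Of 44 SR proteins, SR kinases and hnRNPs, which regulate splicing, 25 were higher, 3 lower and 16 not called (median 0.19). *Hnrnpr* was at 131, 139 and 118 CPM against 192, 191 and 167 CPM (0.5), *Srsf6* at 261, 265 and 229.7 CPM against 345, 384 and 324 CPM (0.48) and *Hnrnpd* differed by 0.45. The SR-protein kinase *Clk3* went the other way, at 85.2, 76.3 and 93 CPM against 60.6, 58.7 and 67.3 CPM (−0.45). Many genes of this class carry exons that send their own transcripts to nonsense-mediated decay, and gene-level counts do not separate such isoforms. In the decay pathway and the exon junction complex 10 of 20 genes were higher and 1 lower (median 0.17). *Smg5* (0.45) and *Upf3a* (0.35) were higher, and the decay helicase *Dhx34* was lower (−0.52).

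The machinery that processes a hairpin into a guide also differed. Of 16 genes of RNA interference 11 were higher with shRNA2 and 2 lower (median 0.22). *Lin28a*, which blocks let-7 maturation, was at 41.2, 37.3 and 39.8 CPM with shRNA1, 75.6, 93.1 and 61.2 CPM with shRNA2 and 61.8 and 56.6 CPM with nt-shRNA (0.96). The control libraries lay above all shRNA1 libraries and near the lowest shRNA2 library. The exporter of hairpin precursors, *Xpo5*, was at 100.1, 98.7 and 92.3 CPM against 144, 156 and 131 CPM (0.57, SE 0.068, adjusted p = 1.12e-05), and the microprocessor subunit *Dgcr8* at 79.6, 94.5 and 75.9 CPM against 108, 108 and 105 CPM (0.36). *Ago4*, an Argonaute of low level, was lower (−0.49, adjusted p = 0.0157). *Ago2*, the Argonaute that cleaves its target and chosen after its values were seen, was at 373, 386 and 359.8 CPM against 377, 368 and 388 CPM and was not called (adjusted p = 0.812). Genes of the interferon and double-stranded RNA response did not stand higher with shRNA2: of 23 tested, 2 were higher and 8 lower (median −0.20). The tetherin gene *Bst2* was at 116, 107 and 129 CPM against 71.4, 63.1 and 79.8 CPM (−0.71) and *Ifitm1* was lower (−0.51). The RNA sensor *Ddx58*, 1 of the 2 higher genes, was at 10.2, 9.84 and 8.42 CPM against 15, 19.2 and 13.1 CPM (0.74). The list's median was −0.066 over genes with at least 10 counts in every library, and its lower count was 5 without shRNA1 replicate 3, shRNA2 replicate 1 or shRNA2 replicate 2.

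**Figure D3:**
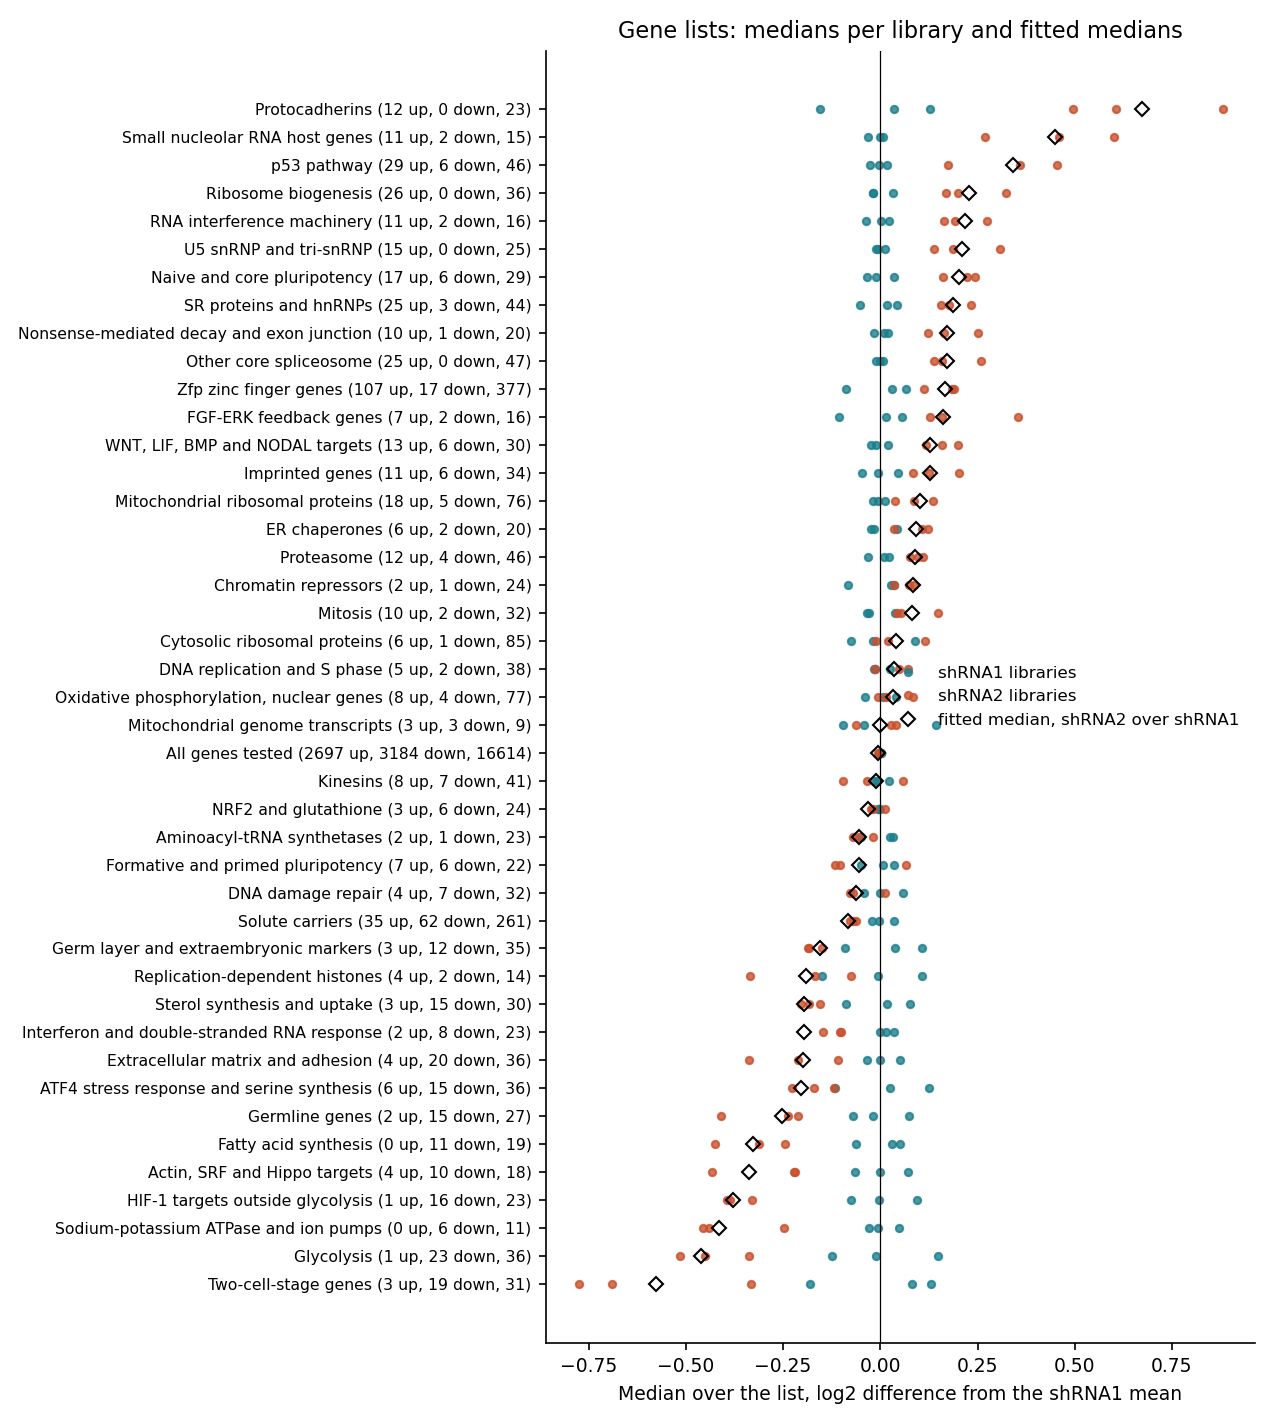
Median log2 level over the tested genes of each list, relative to the shRNA1 mean (horizontal axis, log2 units), in each library; each point is 1 library and the diamond is the median of the fitted fold changes. The shRNA2 points of the spliceosome, p53 and protocadherin lists lie to the right of the shRNA1 points, and those of glycolysis, HIF-1 targets and 2-cell-stage genes lie to the left.

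Genes of the p53 pathway were mostly higher with shRNA2, as 29 of 46 were higher and 6 lower (median 0.34). The E3 ligase *Mdm2*, which degrades p53 and is itself a p53 target, was at 258, 253 and 239 CPM with shRNA1, 465, 509.8 and 368 CPM with shRNA2 and 205 and 176 CPM with nt-shRNA (log2 0.84, SE 0.086, adjusted p = 3.18e-06). No shRNA2 library overlapped shRNA1, and the shRNA1 libraries stood above the control. The study reports more skipping of an *Mdm2* exon with each hairpin, which yields a protein unable to bind p53. Gene-level counts do not separate that isoform from the full-length one. *Plk2*, a polo-like kinase induced by p53, was at 68.3, 75.5 and 62.6 CPM against 154, 182 and 107 CPM, with 43.4 and 32.1 CPM in nt-shRNA (1.1). *Perp*, a p53 target in apoptosis and cell adhesion, was at 25.2, 23.1 and 23.6 CPM against 47, 57.9 and 36.9 CPM, with 18.4 and 18.8 CPM in nt-shRNA (0.98). By role, 5 of 7 regulators, 17 of 27 targets in arrest, repair and metabolism and 7 of 12 apoptosis targets were higher. Members did not all move this way. The ribonucleotide reductase subunit *Rrm2b*, a p53 target for nucleotide supply, was lower at 33.3, 35.5 and 30.5 CPM against 23, 17 and 21.5 CPM (−0.69, adjusted p = 6.97e-05). The cell cycle inhibitor *Cdkn1a*, chosen after its values were seen, was at 213, 196 and 213 CPM against 221, 201 and 205 CPM, beside 234 and 195 CPM in nt-shRNA, and did not differ beyond the spread of the libraries (log2 0.01, SE 0.06, adjusted p = 0.913).

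Many genes of sugar and lipid metabolism were lower with shRNA2. For glycolysis 23 of 36 genes were lower with shRNA2 and 1 higher (median −0.46). *Aldoc*, an aldolase isoform, was at 25.9, 23.4 and 35.3 CPM with shRNA1, 7.66, 5.96 and 10.4 CPM with shRNA2 and 61.6 and 76.5 CPM with nt-shRNA (log2 −1.82, SE 0.16). *Pfkp*, the platelet-type phosphofructokinase and a rate-setting step, was at 456, 393 and 494 CPM against 216, 220.3 and 272 CPM, with 811 and 877 CPM in the control (−0.92). *Pgk1*, which makes ATP in the pay-off phase, was at 378, 332 and 415 CPM against 206, 196 and 235 CPM (−0.82). For these 3 genes nt-shRNA was the highest group, and the hairpin groups were apart. The hexokinase *Hk1* (−0.8), the muscle phosphofructokinase *Pfkm* (−0.59) and the regulator *Pfkfb3* (−0.72) were lower, as was the lactate exporter *Slc16a3*, at 59.9, 55.5 and 84.6 CPM against 26.8, 21.9 and 33.4 CPM (−1.29). By role, 2 of 3 genes of glucose uptake (median −0.44), 17 of 23 enzymes (median −0.56) and 4 of 10 genes from pyruvate onwards (median −0.13) were lower. *Pfkfb4*, a bifunctional regulator of phosphofructokinase, was the member higher with shRNA2, at 7.24, 6.36 and 7.65 CPM against 9.69, 9.39 and 8.52 CPM (adjusted p = 0.026).

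Targets of the hypoxia-inducible factor HIF-1 outside glycolysis were mostly lower, with 16 of 23 lower and 1 higher (median −0.38). *Bnip3*, a receptor for mitophagy, was at 24.5, 21.2 and 28.9 CPM with shRNA1, 8.18, 6.09 and 10.5 CPM with shRNA2 and 49.4 and 70.4 CPM with nt-shRNA (−1.6, SE 0.15); 22.3% of its exonic bases overlap another gene. *P4ha1*, a collagen prolyl hydroxylase, was at 69.3, 65.4 and 77.4 CPM against 39.4, 32.5 and 40.7 CPM, with 122 and 134 CPM in the control (−0.92). *Ndrg1* differed by −1.37. The histone demethylase *Kdm3a*, also a known HIF-1 target, was higher, at 193, 181 and 155 CPM against 269, 294 and 234 CPM (0.59). The core searched for was ACGTG, a form of the site that HIF-1 binds, read as CACGT on the other strand. Other forms of the site were not searched. To show where these letters stood, 300 bases around the gene start (250 before it and 50 after, RefSeq, GRCm38.p6) are printed for 2 of the leading HIF-1 targets and 2 glycolytic genes, 5′ to 3′ on the gene's strand, with the core in capitals. The windows are chr11:78322823-78323122 on the plus strand for *Aldoc*, chr7:138909457-138909756 on the minus strand for *Bnip3*, chr10:59323046-59323345 on the plus strand for *P4ha1* and chr13:6648722-6649021 on the minus strand for *Pfkp*.
Aldoc: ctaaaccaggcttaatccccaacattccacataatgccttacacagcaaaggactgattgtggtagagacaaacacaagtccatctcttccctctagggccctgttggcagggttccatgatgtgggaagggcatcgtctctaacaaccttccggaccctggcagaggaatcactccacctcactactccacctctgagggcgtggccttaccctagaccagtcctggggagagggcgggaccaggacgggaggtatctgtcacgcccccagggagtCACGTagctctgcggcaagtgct
Bnip3: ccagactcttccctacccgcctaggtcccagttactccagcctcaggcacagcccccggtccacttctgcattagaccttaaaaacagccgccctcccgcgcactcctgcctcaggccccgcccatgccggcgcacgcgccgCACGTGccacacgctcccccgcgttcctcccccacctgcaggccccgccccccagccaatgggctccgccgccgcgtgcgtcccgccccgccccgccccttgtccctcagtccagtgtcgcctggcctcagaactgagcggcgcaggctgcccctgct
P4ha1: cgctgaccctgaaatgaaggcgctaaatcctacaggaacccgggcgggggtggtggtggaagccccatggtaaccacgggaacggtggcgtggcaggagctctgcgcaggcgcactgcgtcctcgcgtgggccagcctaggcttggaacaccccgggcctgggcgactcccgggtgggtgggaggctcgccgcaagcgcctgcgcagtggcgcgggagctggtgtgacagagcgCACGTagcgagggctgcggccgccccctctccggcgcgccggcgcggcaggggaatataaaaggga
Pfkp: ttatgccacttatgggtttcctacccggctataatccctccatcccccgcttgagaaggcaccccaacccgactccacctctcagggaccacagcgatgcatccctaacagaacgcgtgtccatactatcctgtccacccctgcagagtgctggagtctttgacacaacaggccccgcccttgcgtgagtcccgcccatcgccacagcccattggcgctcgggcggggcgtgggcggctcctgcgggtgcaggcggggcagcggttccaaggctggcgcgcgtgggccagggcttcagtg

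In *Bnip3* the 2 matches are the same palindromic CACGTG read on each strand, *Aldoc* and *P4ha1* hold 1 match each, and *Pfkp* holds 0. Over the glycolysis and HIF-1 lists together, 17 of 35 windows of genes called lower held the core (48.6%), and 8 of 18 windows of genes not called lower held it (44.4%). Over all tested genes the share was 2928 of 11614 windows (25.2%). A window existed for only 69.9% of the tested genes, under the 80% needed for a comparison, so nothing is read from the lists against that share. The HIF-1 list holds known HIF-1 targets, for which the element is part of what is known, and a match of 5 letters is a description of the sequence only.

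Lipid genes were lower in part. Of 30 genes of sterol synthesis and uptake 15 were lower and 3 higher (median −0.20), and of 19 genes of fatty acid synthesis 11 were lower and 0 higher (median −0.33). The demethylase *Cyp51* was at 106, 99.2 and 109 CPM against 67, 62.4 and 72.5 CPM (−0.64), the sterol exporter *Abcg1* at 30.1, 29.9 and 35 CPM against 16.7, 15.6 and 19.6 CPM (−0.88), and *Insig1*, which retains the SREBP complex in the ER, at 97.6, 86 and 99.4 CPM against 63.4, 58.4 and 66.8 CPM (−0.59). Among fatty acid genes the desaturases *Scd1* (−0.86) and *Scd2* (−0.69) and the acetyl-CoA synthetase *Acss1* (−0.88) were lower. *Fasn*, the fatty acid synthase, chosen after its values were seen, was at 252, 246 and 274 CPM against 259, 285 and 279 CPM and was not called (adjusted p = 0.258).

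Respiration genes differed little. Of 77 nuclear genes of oxidative phosphorylation 8 were higher and 4 lower (median 0.033), below the background in both directions, and the sign of that median changed with the setting. The higher count was 2 without shRNA2 replicate 2, and 4 without shRNA1 replicate 1, shRNA1 replicate 2 or shRNA2 replicate 1. It was 5 with scaling by library size alone and with no filter. The 9 tested transcripts of the mitochondrial genome were divided, with 3 higher and 3 lower: *mt-Nd1* was at 878, 811 and 712 CPM against 1078, 1048 and 919.9 CPM (0.34) and *mt-Nd5* at 992, 824 and 876 CPM against 750.0, 668 and 711 CPM (−0.34). In the ATF4 stress response and serine synthesis 15 of 36 genes were lower and 6 higher (median −0.20, and −0.11 without shRNA1 replicate 3). The proline enzyme *Pycr1* (−0.83), the serine enzyme *Phgdh* (−0.51) and the neutral amino acid carrier *Slc1a4* (−0.95) were lower, whereas the arginine carrier *Slc7a3* was at 18.7, 16.2 and 15.5 CPM against 30.6, 51.3 and 27.7 CPM (1.12). Among genes of glutathione and the NRF2 response 6 of 24 were lower and 3 higher, with *Gstm1* (−0.84) and *Gpx4* (−0.51) lower.

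Targets of WNT, LIF and BMP were more often higher than lower with shRNA2, and genes of the NODAL pathway more often lower. Of 30 targets of WNT, LIF, BMP and NODAL 13 were higher and 6 lower (median 0.13, and 0.25 without shRNA1 replicate 3). WNT targets were 6 higher and 1 lower of 11 (median 0.31), LIF and BMP targets 6 higher and 1 lower of 13 (median 0.14), and NODAL pathway genes 2 higher and 4 lower of 7 (median −0.26), with 1 gene counted in 2 of these roles. *Id3*, an inhibitor of helix-loop-helix factors and a direct BMP target, was at 2.77, 4.24 and 2.65 CPM with shRNA1, 14.1, 28.2 and 12.2 CPM with shRNA2 and 1.32 and 1.86 CPM with nt-shRNA (2.52, SE 0.26, adjusted p = 3.53e-06). *Id2*, of the same family, went the other way, at 14.3, 15 and 15.5 CPM against 6.67, 3.57 and 6.52 CPM, with 13.5 and 12.6 CPM in the control (−1.42, SE 0.16, adjusted p = 7.37e-06). Both genes kept their groups apart, and *Id1*, chosen after its values were seen, was higher at 5.21, 6.71 and 6.82 CPM against 11, 10.1 and 10.5 CPM (0.75). In the NODAL pathway the ligand *Nodal* was at 60.2, 58.3 and 54.8 CPM against 94.4, 109.6 and 84.1 CPM, with 42.5 and 50.9 CPM in the control (0.74), so it was higher. Its antagonist and target *Lefty2* was at 26.2, 15.3 and 22.2 CPM against 2.6, 3.39 and 7.96 CPM, with 44.9 and 78.7 CPM in the control (−2.19, SE 0.26). *Lefty1*, its neighbour and also a NODAL target, chosen after its values were seen, was lower too, at 4.38, 2.67 and 5.55 CPM against 0.946, 0.825 and 1.26 CPM (−2.08).

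Of 16 targets and feedback genes of FGF-ERK signalling 7 were higher and 2 lower (median 0.16, and 0.27 without shRNA2 replicate 3). The feedback inhibitor *Spry2* was at 54.9, 62 and 50.8 CPM against 95.8, 97.4 and 82.8 CPM, with 34.9 and 35.5 CPM in the control (0.72), and the ETS factor *Etv4* at 22.8, 27.5 and 23.1 CPM against 45, 63.3 and 43.2 CPM, with 22 and 23.3 CPM in the control (1.05). For *Etv4* the shRNA1 libraries were level with the control, while for *Spry2* both hairpin groups lay above it. The immediate-early gene *Ier3* was lower, at 21.6, 21.8 and 27.4 CPM against 11.9, 9.85 and 12.7 CPM (−1.05). *Fgf4* itself, the ligand that ES cells make and chosen after its values were seen, was lower, at 206, 190.0 and 197 CPM against 134, 122 and 160.4 CPM (−0.51). All cells were kept under an inhibitor of this pathway.

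Of 29 naive and core pluripotency genes 17 were higher and 6 lower with shRNA2 (median 0.20). The core factors were 5 higher and 1 lower of 9 (median 0.20) and the naive factors 12 higher and 5 lower of 20 (median 0.22). *Klf4*, a naive factor downstream of LIF, was at 281, 317 and 291 CPM with shRNA1, 481, 498 and 424 CPM with shRNA2 and 195 and 178 CPM with nt-shRNA (0.66, SE 0.068, adjusted p = 3.2e-06). *Dppa3*, known from early germ cells and the zygote, was lower at 58, 52.6 and 60.3 CPM against 36.9, 25.4 and 36.4 CPM (−0.79). The core factor *Pou5f1*, chosen after its values were seen, was at 600.0, 603 and 652 CPM against 625, 686 and 623 CPM (log2 0.059, SE 0.061, adjusted p = 0.474) and *Sox2*, chosen in the same way, at 321, 319 and 319 CPM against 348, 347 and 339 CPM (log2 0.11, SE 0.053, adjusted p = 0.119). Neither of the 2 was called. Formative and primed genes were mixed, with 7 of 22 higher and 6 lower. The de novo methyltransferase *Dnmt3b* was at 57.2, 67.8 and 63.4 CPM against 97.1, 100.5 and 82.6 CPM (0.57), and the claudin *Cldn6* was lower (−0.79).

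Genes of the 2-cell-stage embryo, which a small share of ES cells expresses at any time, were mostly lower with shRNA2. Of 31 tested 19 were lower and 3 higher (median −0.58). In the *Zscan4* cluster 8 of 9 genes were lower and 0 higher (median −0.60). *Usp17le*, of a deubiquitinase family of the 2-cell stage, was at 22.3, 24 and 18 CPM with shRNA1, 8.51, 6.69 and 9.78 CPM with shRNA2 and 6.72 and 5.29 CPM with nt-shRNA (−1.36, SE 0.13), and *Usp17ld* at 4.56, 5.6 and 5.3 CPM against 2.08, 1.79 and 2.1 CPM (−1.37). *Zscan4d*, chosen after its values were seen, was at 18.1, 21 and 13.1 CPM against 10.7, 11 and 13.9 CPM, with 2.91 and 2.21 CPM in the control (−0.54), where shRNA2 replicate 3 overlapped shRNA1 replicate 3. Some genes went against the list. *Tdpoz4* had 11, 19 and 17 counts with shRNA1 and 73, 84 and 37 with shRNA2, beside 1 and 2 with nt-shRNA (2.13), and *Pramel7* was at 4.33, 3.98 and 3.05 CPM against 13, 12 and 7.03 CPM, with 1.06 and 1.16 CPM in the control (1.5). Members of the *Zscan4*, *Usp17l* and *Tdpoz* families are near-identical copies, and multimapping reads were not counted. Their levels and calls therefore rest on the reads that mapped to 1 place only. In bulk RNA, fewer 2-cell-like cells and less RNA per such cell cannot be told apart.

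Germline genes were lower in 15 of 27 cases and higher in 2 (median −0.25). *Dpep3* was at 7.1, 7.26 and 8.74 CPM against 3.5, 1.97 and 3.54 CPM (−1.37), and the meiotic axis gene *Sycp3* at 38.3, 38.7 and 33.3 CPM against 24.5, 19.8 and 26 CPM (−0.65), with 52.2% of its exonic bases shared with another gene. *Tex19.1*, a germline guard against transposons, was higher, at 144, 148 and 140.3 CPM against 189, 219.5 and 183 CPM, with 73.6 and 76.5 CPM in the control (0.45). Imprinted genes were 11 higher and 6 lower of 34 (median 0.13, and 0.22 without shRNA1 replicate 2), with 9 higher and 2 lower of 21 among the paternally expressed and 2 higher and 4 lower of 13 among the maternally expressed. *Peg3* (−0.41) and *Sgce* (−0.44), both paternally expressed, were lower, and the maternally expressed cell cycle inhibitor *Cdkn1c* was lower as well, at 5.67, 5.14 and 7.18 CPM against 2.84, 2.34 and 3.21 CPM (−1.11), with 30.7% of its exonic bases shared.

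Of 36 genes of extracellular matrix and adhesion 20 were lower and 4 higher (median −0.20), with 8 lower and 3 higher of 16 matrix genes and 12 lower and 1 higher of 20 adhesion genes. The tight junction gene *Cldn7* was at 31.5, 31.6 and 38.5 CPM with shRNA1, 12.4, 9.44 and 18.4 CPM with shRNA2 and 60.4 and 55.8 CPM with nt-shRNA (−1.34), and the basement membrane collagen *Col4a2* at 52.3, 63 and 72 CPM against 38.5, 32.4 and 39.5 CPM (−0.76). *Lama1*, a laminin chain of the same membrane, was higher (0.47), as was the neural cadherin *Cdh2* (0.67, adjusted p = 0.0354). The sums of the primitive endoderm and trophoblast markers were lower with shRNA2 in the same libraries, and their part in these results was not tested. Of 18 actin, SRF and Hippo targets 10 were lower and 4 higher (median −0.34), led by *Tagln2*, at 254, 244 and 273 CPM against 176, 167 and 183 CPM (−0.55), and the tropomyosins *Tpm4* (−0.46) and *Tpm1* (−0.45). *Vim*, the intermediate filament of mesenchymal cells, was higher, at 51.2, 43.2 and 45.7 CPM against 68.4, 81.7 and 63.3 CPM (0.61). Ion pump genes were 6 lower and 0 higher of 11 (median −0.41), and besides *Atp1b2* these held the regulator *Fxyd6*, at 210.2, 201 and 242 CPM against 108, 91.8 and 127 CPM (−1.0). Among germ layer markers 12 of 35 were lower and 3 higher (median −0.15, and −0.07 without shRNA1 replicate 3), with the neural progenitor filament *Nes* at 41.3, 41.8 and 48.6 CPM against 23.7, 19.6 and 25.7 CPM (−0.93).

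Ribosome biogenesis factors were 26 higher and 0 lower of 36 (median 0.23). *Ubtf*, which opens ribosomal DNA for RNA polymerase I, was at 165, 183 and 175 CPM against 235, 283 and 231 CPM (0.52), *Utp20*, of the small-subunit processome, at 206, 202 and 186 CPM against 266, 296 and 259 CPM (0.47), and *Rrp12* differed by 0.47. The ribosomal proteins themselves did not follow, since 6 of 85 cytosolic ones were higher and 1 lower (median 0.041), although 15 were higher without shRNA1 replicate 3. Of 76 mitochondrial ribosomal proteins 18 were higher and 5 lower (median 0.10), with 11 higher without shRNA2 replicate 2. DNA replication genes were 5 higher and 2 lower of 38, led by the thymidylate synthase *Tyms*, at 26.6, 28.2 and 22.2 CPM against 45.3, 56.5 and 41 CPM (0.9), and mitosis genes were 10 higher and 2 lower of 32, led by *Ube2c* (0.37), *Aurka* (0.32) and *Ccnb1* (0.3). The higher count of replication genes was 3 without shRNA1 replicate 2 or shRNA2 replicate 2, and that of mitosis genes was 6 without shRNA1 replicate 2. With 37.5% of mitosis genes called, the list was near the 35.4% of all genes. Among the other housekeeping lists, 12 of 46 proteasome genes were higher and 4 lower, 6 of 20 ER chaperones higher and 2 lower (2 higher without shRNA2 replicate 2 and 3 without shRNA2 replicate 1), 4 of 32 DNA repair genes higher and 7 lower (3 lower without shRNA1 replicate 1, shRNA1 replicate 2 or shRNA2 replicate 2, and 4 without shRNA2 replicate 1), 2 of 23 aminoacyl-tRNA synthetases and partners higher and 1 lower, 8 of 41 kinesins higher and 7 lower (5 higher without shRNA1 replicate 2 and 4 lower without shRNA2 replicate 2), 4 of 14 histone genes higher and 2 lower, and 2 of 24 chromatin repressors higher and 1 lower. The higher genes of the last list were *Trim28* (0.32) and *Tet2*, which oxidizes 5-methylcytosine and is not a repressor in the strict sense.

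Among gene families, 107 of 377 *Zfp* zinc finger genes were higher and 17 lower (median 0.17), beside backgrounds of 16.2% and 19.2%. The lower count was 9 without shRNA2 replicate 2, and 11 without shRNA2 replicate 1 or by the DESeq2 Wald test. *Zfp750*, a factor of epidermal differentiation, was at 6.22, 7.97 and 6.86 CPM with shRNA1, 20, 27.6 and 14.3 CPM with shRNA2 and 3.48 and 2.38 CPM with nt-shRNA (1.56), and *Zfp365* at 41.3, 41.2 and 33.6 CPM against 73.5, 78.7 and 58 CPM (0.86). *Zfp36*, which binds AU-rich elements in mRNA and is no DNA-binding factor, was the furthest in the other direction, at 26, 30.3 and 33.1 CPM against 16.9, 13.3 and 19.4 CPM (−0.85). Of 261 solute carriers 62 were lower and 35 higher, and the sodium-glucose carrier *Slc5a1* was the furthest among the higher ones, with 8, 9 and 10 counts with shRNA1 and 50, 46 and 28 with shRNA2 (2.28). With so few shRNA1 counts it passed the filter through the shRNA2 libraries, and it was not tested when 10 counts were required in every library. Protocadherins, cell surface proteins that share constant exons within a cluster, were 12 higher and 0 lower of 23 tested (median 0.67). *Pcdhgc3* was at 3.83, 3.98 and 2.94 CPM against 5.86, 6.55 and 5.45 CPM (0.75) and *Pcdhga7* (1.19) and *Pcdhgb4* (1.39), of lower level, were higher as well, where *Pcdhgb4* was not tested with 10 counts required in every library. Between 38.3% and 66.9% of the exonic bases of these 3 genes are shared with neighbours, and the number of protocadherins called higher was 7, 6 and 5 without shRNA1 replicate 1, shRNA1 replicate 3 and shRNA2 replicate 2, and 7 by the DESeq2 Wald test.

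Small nucleolar RNAs (snoRNAs) were the class with the highest share of higher calls among gene classes with at least 50 members tested, in the fit without gene-length offsets. They lie in introns of host genes, from which they are released after splicing, and guide 2′-O-methylation (C/D box) or pseudouridylation (H/ACA box) of ribosomal RNA. In this poly(A)-selected data 71 passed the filter, 30 were higher with shRNA2 (42.3%) and 0 lower, and the median log2 fold change was 0.56. For comparison, protein-coding genes were higher in 16.6% and lower in 21.4% of 14024 cases. Counts were low, with 2 to 194 per library, and the 50 snoRNAs with at least 10 counts in every library gave 24 higher and a median of 0.54. The C/D box members printed here, at the smallest adjusted p-values among those that hold both boxes, are sense sequences of GENCODE M21 transcripts (GRCm38), 5′ to 3′, with the C box core TGATGA and the D box CTGA in capitals. Their places are chr15:80078498-80078591 for *Snord83b*, chr2:167064998-167065086 for *Gm23201*, chr1:9942463-9942549 for *Snord87*, chr11:62603079-62603150 for *Snord49b* and chr9:64175873-64175942 for *Gm22571*, and *Snord43*, which the annotation files as a miRNA gene and which was chosen after its values were seen, is at chr15:80082847-80082954. In the *Snord43* transcript TGATGA lies beyond the first 20 bases, so it does not meet the rule on position used for the other 5 sequences.
Snord83b: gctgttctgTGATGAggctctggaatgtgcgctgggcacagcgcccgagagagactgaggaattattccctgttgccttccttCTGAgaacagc
Gm23201: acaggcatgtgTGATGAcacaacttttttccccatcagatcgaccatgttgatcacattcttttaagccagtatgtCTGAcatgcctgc
Snord87: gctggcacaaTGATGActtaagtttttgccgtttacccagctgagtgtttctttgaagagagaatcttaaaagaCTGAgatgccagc
Snord49b: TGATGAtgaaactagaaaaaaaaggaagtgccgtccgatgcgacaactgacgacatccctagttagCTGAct
Gm22571: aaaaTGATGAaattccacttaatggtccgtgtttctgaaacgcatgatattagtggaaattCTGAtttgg
Snord43: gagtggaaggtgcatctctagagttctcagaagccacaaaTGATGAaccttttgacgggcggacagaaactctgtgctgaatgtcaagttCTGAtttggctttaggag

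*Snord83b* and *Snord43* share a host, the ribosomal protein gene *Rpl3*. *Snord43* was at 2.03, 1.61 and 1.31 CPM with shRNA1, 4.4, 5.18 and 3.58 CPM with shRNA2 and 1.25 and 1.16 CPM with nt-shRNA (log2 1.43, SE 0.21, adjusted p = 6e-05). *Snord83b* was at 2.35, 2.47 and 1.67 CPM, 4.26, 5.13 and 3.72 CPM and 1.66 and 1.54 CPM in the same order (1.03, SE 0.19, adjusted p = 0.000555). In both, every shRNA2 library exceeded every shRNA1 library, while *Rpl3* had a log2 fold change of −0.023 (SE 0.062, adjusted p = 0.802) and was not called. The boxes were present in snoRNAs on both sides of the threshold: TGATGA within the first 20 bases and CTGA within the last 20 were found together in 27 of the 71, and in 13 of the 30 that were higher.

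Other snoRNAs were also called higher where their host was not called, and the difference between snoRNA and host was not tested. A host gene was tested for 65 of the 71. In the fit without gene-length offsets 57 of these snoRNAs had a higher fold change than their host. The 52 hosts held 21 higher and 0 lower genes and had a median of 0.11. The higher snoRNAs with a tested host lay in 20 hosts, and 7 of these hosts were higher as well. Of the 41 snoRNAs in hosts that were not called, 19 were higher, with a median of 0.57. Host genes named for their snoRNAs were 11 higher and 2 lower of 15 (median 0.45), among them *Snhg1*, at 146, 141 and 128 CPM against 216, 255 and 189.7 CPM (0.67), and *Snhg5*, at 95.3, 89.4 and 87.8 CPM against 125, 151 and 122 CPM (0.55). The hosts lie on the strand of their snoRNAs, so these counts cannot tell a snoRNA from an unspliced or retained host intron that contains it. Intervals such as that of *Gm22571*, of 70 bases, are shorter than the reads of the study. A read of full length there extends into the flanking sequence. Which of these RNAs was counted was not tested. The count of higher snoRNAs was 13 when the fit carried gene-length offsets (12 with the replicate block as well) and 16 by the DESeq2 Wald test, and it was 17 without shRNA1 replicate 3 and 12 without shRNA2 replicate 2, with a median of 0.34 under the length offsets. With length offsets 3020 of all 16614 genes were higher, so the 13 of 71 snoRNAs were then higher about as often as all genes.

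**Figure D4:**
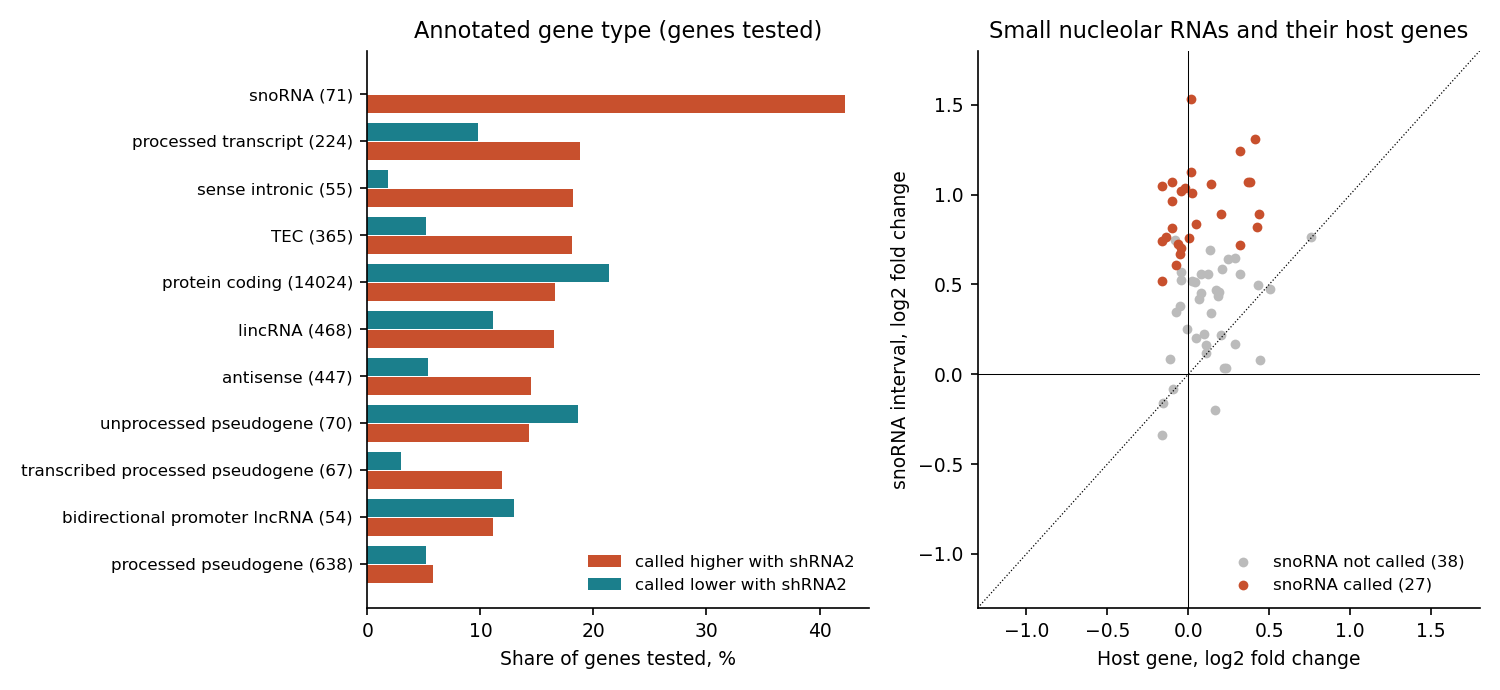
Left, percent of tested genes called higher or lower with shRNA2 for each annotated gene class; right, log2 fold change of each snoRNA (vertical axis) against that of its host gene (horizontal axis), 1 point per snoRNA. For snoRNAs the bars stand at 42.3% higher and 0 lower, and 57 of the 65 points lie above the diagonal of equal fold change.

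In other classes that lie inside or across genes the share of higher calls was near the 16.2% of all genes. Their share of lower calls was below the 19.2% of all genes. Antisense genes were 65 higher (14.5%) and 24 lower (5.37%) of 447 (median 0.137). Sense-intronic genes were 10 higher (18.2%) and 1 lower (1.82%) of 55 (median 0.227). Genes of the class TEC, which awaits experimental support, were 66 higher (18.1%) and 19 lower (5.21%) of 365 (median 0.234). Long intergenic genes were 77 higher and 52 lower of 468, and processed pseudogenes 37 higher and 33 lower of 638. As counting was unstranded, antisense genes cannot be separated from their sense partner. The antisense, sense-intronic and TEC classes lost calls by the DESeq2 Wald test, with 36, 4 and 34 genes higher and 15 antisense genes lower. Without shRNA2 replicate 2 the antisense genes were 37 higher and 15 lower, the TEC genes 36 higher and 9 lower, and 4 sense-intronic genes were higher. The higher antisense count was 37 without shRNA1 replicate 1 and 42 without shRNA1 replicate 3. The higher sense-intronic count was 5 without either of these libraries or with 10 counts required in every library, and 6 without shRNA2 replicate 1.

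The number of exons of a protein-coding gene went with the direction of the difference. Of 324 single-exon genes 21% were higher and 9.57% lower with shRNA2, whereas of 2214 genes with 20 or more exons 15.0% were higher and 27.5% lower. The median fold change passed from 0.11 in single-exon genes to −0.059 in the class with most exons, with the classes between in order. Mean level went with direction too. From the lowest to the highest quintile of protein-coding genes by level 7.31%, 12.3%, 17.4%, 20.9% and 25.1% were higher. The lower share peaked in the second quintile and was 18.6%, 27.0%, 24.3%, 21% and 16.0% in the same order. Exonic length showed a smaller span, from 13.5% higher and 22% lower in the shortest quintile to 18% and 20.7% in the longest. These shares describe genes, which are not independent replicates, and exon number, length and level were not separated from each other. A check of GC content near the gene start was void, because fewer than 80% of the lower genes (76.3%) had a promoter window.

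**Figure D5:**
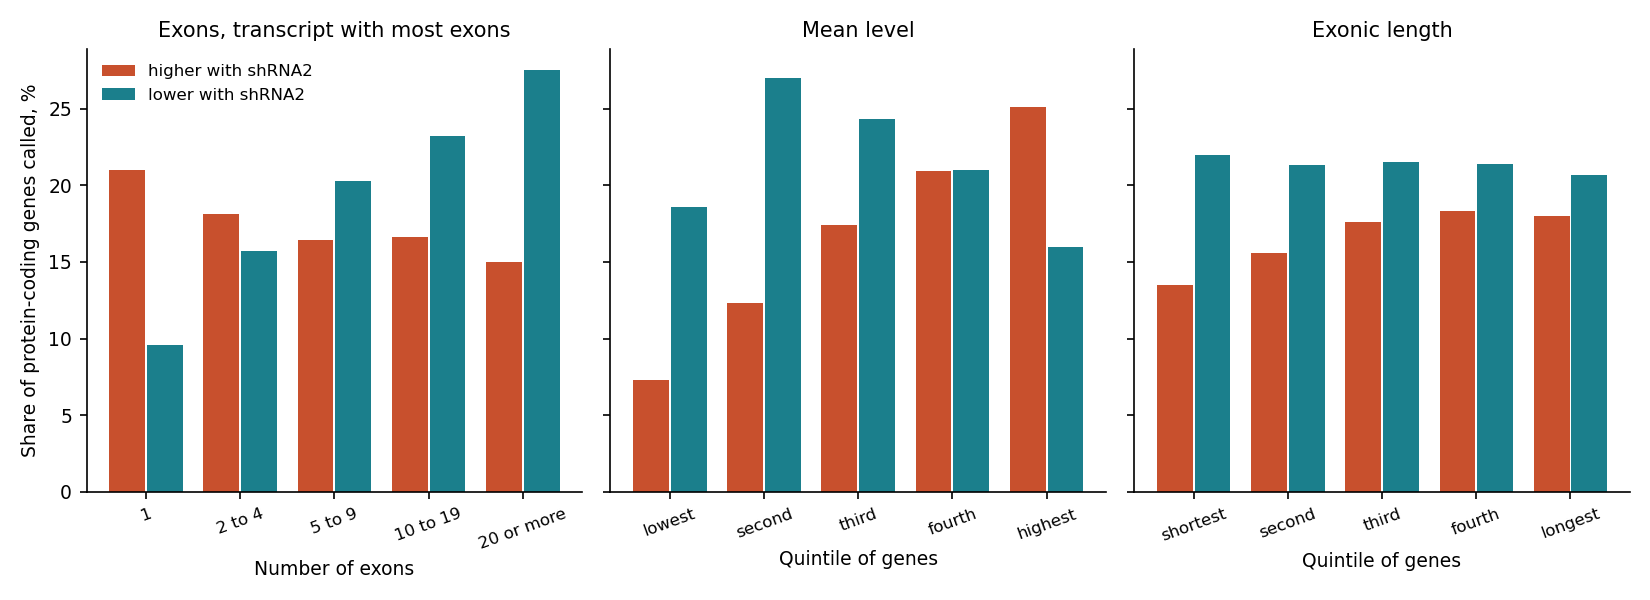
Percent of protein-coding genes called higher or lower with shRNA2 (vertical axes) by exon number, by quintiles of mean level and of exonic length. The lower share climbs from 9.57% in single-exon genes to 27.5% in genes with 20 or more exons, and the higher share climbs from 7.31% to 25.1% over the quintiles of level.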

How the data were processed

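RNA was poly(A)-selected from R1 mESCs with shRNA1 (n = 3), shRNA2 (n = 3) or nt-shRNA (n = 2). The deposited values are raw read counts per gene, made by the authors with STAR alignment to mm10 and featureCounts v1.6.2 on GENCODE M24 exons, as unstranded fragments without multimapping reads. Gene names and classes came from GENCODE M21 (55144 of 55385 identifiers matched). The 6 hairpin libraries were filtered (filterByExpr, minimum count 10), normalized (TMM) and tested with the edgeR 4.0.16 quasi-likelihood test (limma 3.58.1, R 4.3.3), two-sided, with Benjamini-Hochberg adjustment over the 16614 genes and a threshold of 0.05. The SE is the log2 fold change divided by the root of F. CPM values use the TMM factors, and nt-shRNA was placed on the same scale without a test. Marker sums are per 1000000 counted reads. DESeq2 1.42.0, other normalizations and filters, a replicate block, gene-length offsets, thinning to the smallest library, all 8 libraries and leave-one-out fits were alternatives. The procedure was tested on simulated data. Figures were drawn with Python 3.11.15 and matplotlib 3.10.9.

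Members and lists were chosen with earlier results of these data known. Named genes were *Eftud2*, the 10 higher and 10 lower protein-coding genes with the smallest adjusted p-value among those past 2-fold without overlap, the 5 with the largest fold each way at 1 CPM or more, in each list the 3 called genes with the smallest adjusted p-value and the called gene furthest against its majority, and the 6 transcripts *Trp53*, *Mdm2*, *Tigar*, *Hk1*, *Pfkfb3* and *Pfkm*. Hairpin sequences were not analysed here, and some genes that the rule names are not reported here.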

Additional observations from a re-analysis of the deposited data

How the results depend on the processing

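Over 17 alternatives the fold change of none of the 173 named genes changed sign. Lower genes outnumbered higher genes except with gene-length offsets (3020 higher, 2996 lower), also with the replicate block (3194 and 3152). Of these genes 161 kept their call in every alternative that tested them, 11 low-level or small differences lost it in at least 1 (*Ago4*, *Pfkfb4*, *Wars*, *Aimp1*, *Vars*, *Hmox1*, *Prim2*, *Cdh2*, *Ehmt2*, *Psmb9* and *Snhg14*) and *Eftud2* gained it, at −0.20 without shRNA2 replicate 3. Requiring at least 10 counts in every library left 149 higher and 223 lower genes past 2-fold, because fewer low genes were tested. *Nkx1-2*, *Sp5*, *Sp9*, *Slc5a1*, *Adgrg5*, *Chit1*, *Hist1h3e* and *Pcdhgb4* were not tested there and so have 16 alternatives. Leaving out single libraries gave 1862 to 2894 higher and 2248 to 3296 lower genes, and past 2-fold 182 to 394 higher and 264 to 584 lower, where 584 came without shRNA2 replicate 3. The DESeq2 Wald test called 2425 higher and 2604 lower genes. Between libraries of the same replicate number, deviations from the group means correlated at 0.019, 0.05 and 0.081 for numbers 1, 2 and 3. Libraries of unlike numbers were not compared in this way, so these values do not settle whether replicates were paired. With the replicate block 2834 genes were higher and 3304 lower, beside 2697 and 3184 without it. Of those found with the block, 255 and 363 were past 2-fold. List medians changed sign in at least 1 setting for oxidative phosphorylation, mitochondrial transcripts, formative genes, histones, cytosolic ribosomal proteins and kinesins. Genes under about 1 CPM, such as *Nkx1-2* and *Sp5*, are limited by depth.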
